A study of Mus musculus with 19 samples.

Results

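Genes of macrophages were followed in whole sciatic nerve from inbred DBA/2J mice, in which diabetes was crossed with rosiglitazone. The set was a list of 36 genes, among them receptors, adapters, lysosomal enzymes and a transcription factor of macrophages and their monocyte precursors. For each gene the brightest probe set by mean over the 19 arrays was used, out of those that carry only its symbol. Such a probe set was found for 35 of the 36, and for 18193 genes in all. For Lilrb4a, an inhibitory receptor, 1 probe set was found and it carried several symbols, so it was not used. Of the 35, Itgam and Siglec1 lay below the low-level filter described with their values, which left 33 of the 13460 genes tested.

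Macrophages take up and digest cells and debris. In a peripheral nerve they lie between the fibres and around vessels, and monocytes from the blood join them after damage. Their growth and survival depend on the receptor Csf1r, and their gene programme on the transcription factor PU.1, encoded by Spi1. The activating Fc receptors signal through the adapter Fcer1g and Trem2 through Tyrobp, which carry an activation motif named ITAM, while Fcgr2b inhibits through a motif of its own.

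The control mice were given vehicle (4 arrays, CV702 to CV705, where the authors had left a further array out after quality control) or rosiglitazone (5 arrays, CR711 to CR715). Mice with type 1 diabetes, made diabetic with streptozotocin, a toxin of insulin-producing cells, were given vehicle (5 arrays, DV706 to DV710) or rosiglitazone (5 arrays, DR716 to DR720). Rosiglitazone is an agonist of PPAR gamma, a nuclear receptor of fat cells and macrophages. Each array stands for 1 mouse, and dose, duration, age and sex are not given in the sources used here.

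The values are log2 intensities from arrays that read labelled, amplified RNA of whole nerve, and array medians lay between 83.3 and 101.7 on the linear scale. Transcripts of myelin were abundant, with Mbp, a myelin protein, at 13.83 to 14.44. RNA integrity was read from Gapdh control probe sets, as the log2 signal at the 3' end minus that at the 5' end. This difference was 3.71 in array DV706, 4.38 in DV707 and 1.75 in DR716, against 1.00 to 1.37 in the other arrays. Genes of sensory neuron cell bodies were low in 5 arrays, DV706, DV707, DV709, CR715 and DR716, with a list level of -3.46 to -2.96 against -0.11 to 2.08 in the other 14. Genes of satellite glia, which surround those cell bodies, were at -2.14 to -1.57 in the same 5 and at -0.0017 to 1.06 in the other 14. Whether those 14 samples held ganglion tissue, where such cell bodies lie, besides nerve was not tested. Results are therefore given with all arrays and without DV706, DV707 and DV709, which leaves 2 diabetic vehicle arrays.

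PU.1 binds DNA at a purine-rich core, and the letters GAGGAA, which hold that core, were looked for on both strands of the 250 bases before each start in RefSeq's promoter table of build GRCm38.p6. The table held 32 promoters of 26 members, of which 14 (43.8%) had a match, against 7639 of 32851 promoters of any gene (23.3%). Per gene this was 12 of 26 members (46.2%) and 25.9% of all genes. The longer form GAGGAAGT, which contains GAGGAA, was in 0 member promoters and in 2.44% of all promoters. A match is a description of the letters and not a binding site. The last 150 bases before the start are printed for Trem2 (chr17:48346251-48346400, plus strand), Fcgr1 (chr3:96293970-96294119, minus strand) and the upstream start of Fcgr3 (chr1:171059404-171059553, minus strand). They were chosen because, in the probe sets used, the Fc receptors and Trem2 differed in 1 direction in each of the 5 comparisons below. Second probe sets of Trem2 and Fcgr1 did not always do so, as given with their values. Mrc1 (chr2:14229264-14229413, plus strand), the mannose receptor, is added from a different group. Capitals mark the match, which in all 4 reads TTCCTC on the strand shown.
Trem2: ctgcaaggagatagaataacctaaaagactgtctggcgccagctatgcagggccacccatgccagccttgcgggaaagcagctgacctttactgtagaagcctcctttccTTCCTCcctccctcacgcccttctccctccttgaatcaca
Fcgr1: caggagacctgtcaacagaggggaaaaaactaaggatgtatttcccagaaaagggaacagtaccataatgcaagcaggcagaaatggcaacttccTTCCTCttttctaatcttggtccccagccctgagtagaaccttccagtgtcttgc
Fcgr3: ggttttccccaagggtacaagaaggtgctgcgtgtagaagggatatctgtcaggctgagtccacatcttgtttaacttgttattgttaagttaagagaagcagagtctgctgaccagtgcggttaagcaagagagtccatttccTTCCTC
Mrc1: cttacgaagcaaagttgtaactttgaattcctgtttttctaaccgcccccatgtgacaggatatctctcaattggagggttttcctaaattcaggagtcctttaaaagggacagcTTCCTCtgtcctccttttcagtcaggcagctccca

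Macrophage genes varied more between arrays than most genes, and the arrays of diabetic mice spread most. For each array, the 33 members were centred on their own means over the 19 arrays and averaged into 1 level. This level was -0.0046, 0.05, 0.10 and 0.25 in control vehicle arrays CV702 to CV705, and -0.41, 0.49, -0.18, -0.77 and 0.40 in diabetic vehicle arrays DV706 to DV710. Under rosiglitazone it was -0.10, -0.29, -0.36, -0.02 and 0.06 in control arrays CR711 to CR715, and 0.45, -0.13, -0.09, 0.54 and 0.01 in diabetic arrays DR716 to DR720. The diabetic vehicle group held both the lowest array, DV709, and the second highest, DV707, and its range covered every control array. The SD between arrays was 0.11 in control vehicle, 0.54 in diabetic vehicle, 0.18 in control rosiglitazone and 0.31 in diabetic rosiglitazone mice. In a whole nerve, fewer macrophages and less RNA per macrophage cannot be told apart.

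**Figure D1:**
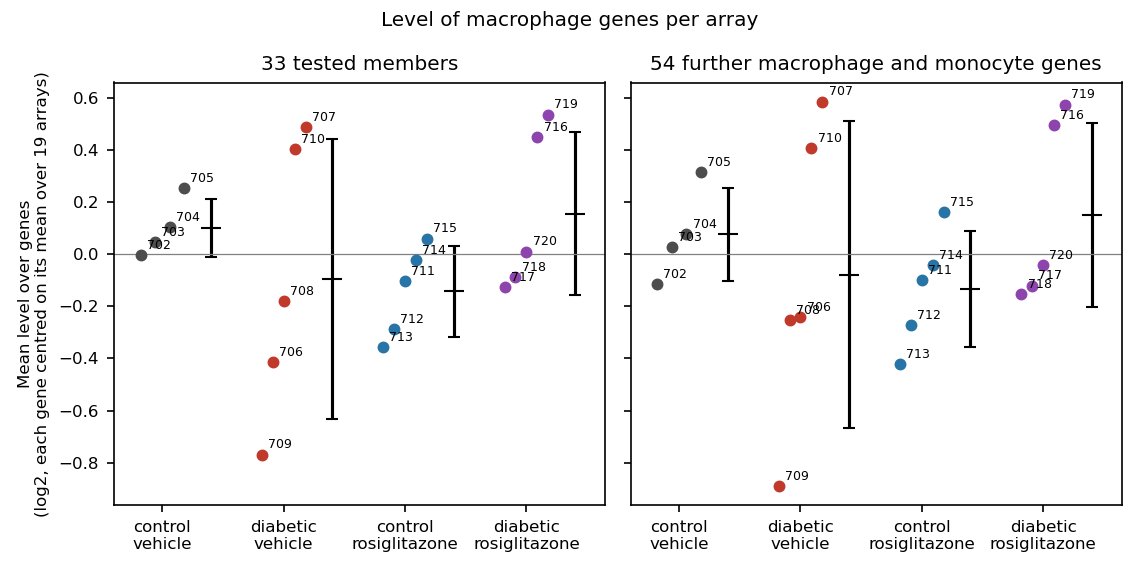
Mean level of the 33 tested macrophage genes (left) and of 54 further macrophage and monocyte genes (right) in each of 19 arrays, as log2 with each gene centred on its mean; points are arrays labelled by number, and bars are the group mean with 1 SD. Diabetic vehicle arrays run from -0.77 (DV709) to 0.49 (DV707), while the 4 control vehicle arrays lie between -0.0046 and 0.25 on the left.

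Single members showed the same arrays at their extremes. DV709 had the lowest value of the 19 in 18 of 33 members, against 8.15% of all genes tested, and DV706 in 8 of 33, against 11.6%. The highest value fell in DV707 for 11 members (17.5% of all genes), in DR719 for 10 (3.61%) and in DR716 for 5 (6.2%). CR713 lay above a member's median over the arrays in 1 of 33 members (43.5% of all genes), DV709 in 2 (53.3%) and CR712 in 3 (44.8%). DV707 did so in 28 (52.6%), DR719 in 28 (45.9%), DV710 in 27 (43.3%) and DR716 in 27 (52%). Over the 19 arrays the members' SD had a median of 0.45, against 0.33 over all genes tested. Of the 5 arrays low in sensory neuron transcripts, DV707 and DR716 were high and DV706 and DV709 low in macrophage genes, and Cx3cr1 was the 1 member of 33 in which those 5 all lay below the other 14. Of all genes, 4.39% lay lower in that way and 1.56% higher, where the members counted 0.

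**Figure D2:**
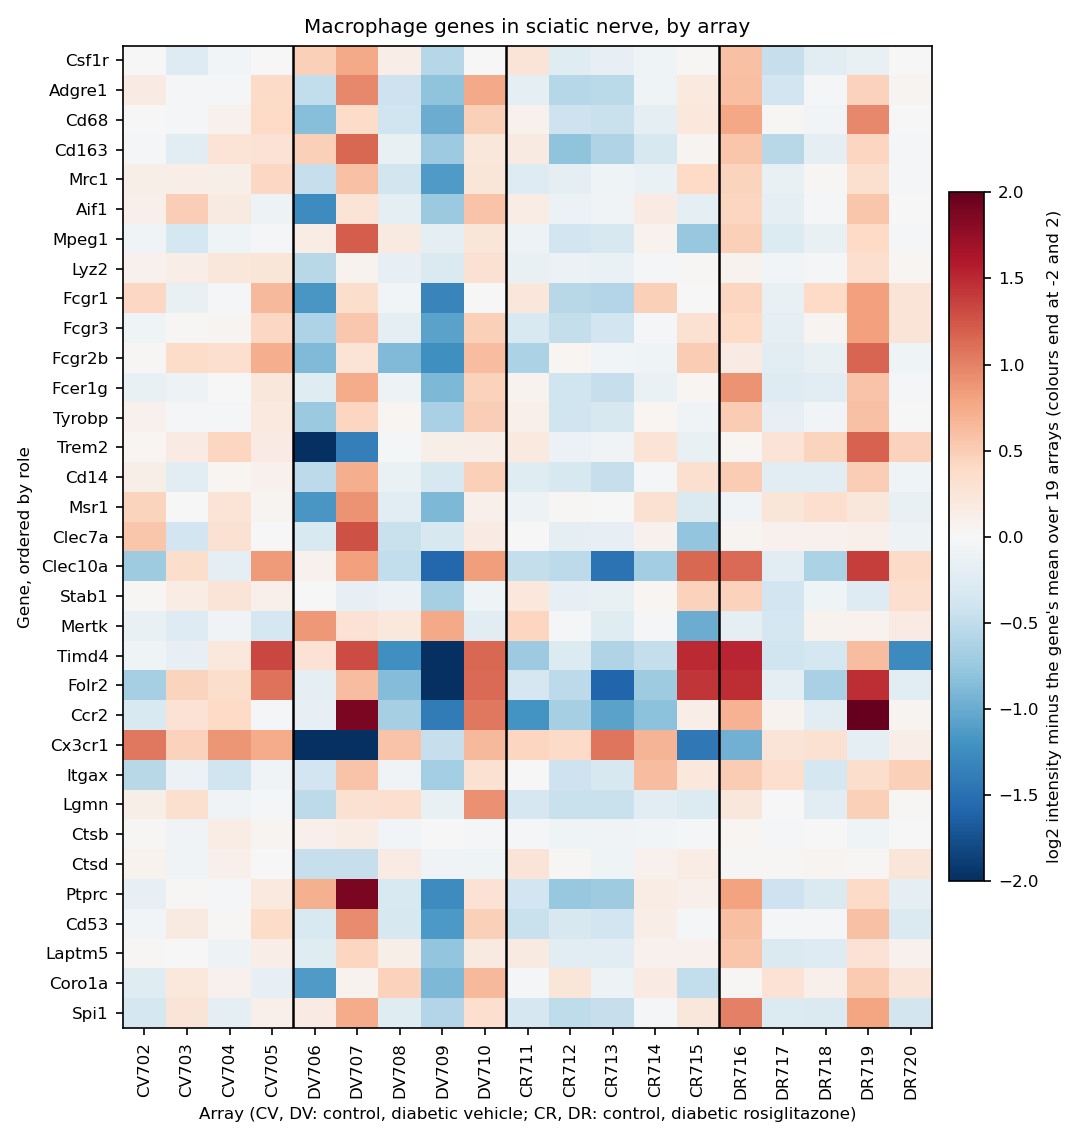
Log2 intensity of each of the 33 tested macrophage genes (rows, ordered by role) in the 19 arrays (columns, by group), relative to the gene's mean over the arrays; colours end at -2 and 2. Most rows are blue in DV709 and red in DV707 and DR719, while Trem2 and Cx3cr1 are blue in both DV706 and DV707.

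The receptors and proteins that define macrophages were well above the filter in every group. Csf1r, the receptor for the growth factors CSF1 and IL-34, measured 13.32, 13.07, 13.27 and 13.32 in control vehicle and 13.80, 14.09, 13.46, 12.75 and 13.34 in diabetic vehicle mice, in array order. With rosiglitazone it measured 13.59, 13.08, 13.16, 13.25 and 13.36 in control and 13.92, 12.87, 13.10, 13.17 and 13.32 in diabetic mice. DV707, DR716 and DV706 were high and DV709 low, and the groups overlapped. Their means were 13.25 ± 0.12 (SD, n = 4), 13.49 ± 0.51, 13.29 ± 0.20 and 13.28 ± 0.39 (n = 5 each), in the same order. Csf1r had 2 other probe sets, and 1 of them differed in the opposite direction in diabetic vehicle mice. In that probe set, also above the filter, DV706 was low, at 8.54, and DV707 was at 9.06, against a mean of 9.33 over the arrays. DV709 was again low, at 8.45, and DR716 again high, at 10.04.

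Adgre1 encodes F4/80, a surface protein used to mark mouse macrophages. It gave 9.80, 9.60, 9.61 and 10.03 in control vehicle mice and 9.16, 10.60, 9.23, 8.84 and 10.40 in diabetic vehicle mice. Rosiglitazone arrays gave 9.45, 9.07, 9.10, 9.55 and 9.84 in control mice and 10.24, 9.26, 9.61, 10.10 and 9.69 in diabetic mice. Diabetic vehicle arrays split, with DV707 and DV710 above the controls and the other 3 below them. Cd68, a glycoprotein of macrophage lysosomes, was 10.87, 10.86, 10.96 and 11.28 in control vehicle and 10.02, 11.24, 10.47, 9.88 and 11.36 in diabetic vehicle mice. Its rosiglitazone values were 10.97, 10.46, 10.44, 10.69 and 11.10 in control and 11.66, 10.90, 10.82, 11.83 and 10.88 in diabetic mice. DR719 and DR716 were its highest arrays and DV709 and DV706 its lowest.

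Cd163, which takes up haemoglobin bound to haptoglobin, had values of 11.87, 11.69, 12.16 and 12.17 in control vehicle and 12.37, 13.04, 11.74, 11.17 and 12.11 in diabetic vehicle mice. In rosiglitazone mice the values were 12.08, 11.08, 11.29, 11.57 and 11.94 without diabetes and 12.45, 11.34, 11.69, 12.31 and 11.87 with it. DV707 was the highest array and CR712 the lowest, and all 4 groups overlapped. Mrc1, the mannose receptor CD206, was 11.62, 11.64, 11.63 and 11.92 in control vehicle and 11.04, 12.09, 11.14, 10.38 and 11.76 in diabetic vehicle mice. With rosiglitazone it was 11.25, 11.31, 11.42, 11.38 and 11.91 in control and 11.96, 11.36, 11.53, 11.83 and 11.48 in diabetic mice. In control mice under rosiglitazone, 4 of 5 arrays lay below every control vehicle array, and the fifth, CR715, beside the highest of them.

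Aif1 encodes IBA1, an actin-binding protein of macrophages and microglia. Its values were 10.04, 10.43, 10.11 and 9.83 in control vehicle and 8.67, 10.20, 9.74, 9.19 and 10.50 in diabetic vehicle mice. Rosiglitazone arrays stood at 10.08, 9.81, 9.86, 10.10 and 9.73 in control and 10.37, 9.73, 9.90, 10.49 and 9.94 in diabetic mice. DV706 and DV709 were the lowest 2 arrays. Of the other genes of this role, Lyz2, which encodes lysozyme, was 13.70 ± 0.07 (SD, n = 4) in control vehicle, 13.39 ± 0.33 in diabetic vehicle, 13.44 ± 0.07 in control rosiglitazone and 13.60 ± 0.16 in diabetic rosiglitazone mice (n = 5 each). Mpeg1, a pore-forming protein of phagocytes, had group means of 10.86 ± 0.15, 11.31 ± 0.53, 10.70 ± 0.31 and 11.08 ± 0.33 in that order.

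Among the Fc receptors and ITAM adapters, both adapters lay within narrow ranges outside the diabetic groups. Fcer1g, the gamma chain shared by Fc receptors of macrophages and mast cells, was 11.35, 11.39, 11.49 and 11.72 in control vehicle and 11.25, 12.23, 11.38, 10.58 and 11.95 in diabetic vehicle mice. In rosiglitazone mice it was 11.57, 11.09, 11.03, 11.36 and 11.53 without diabetes and 12.38, 11.24, 11.26, 12.06 and 11.46 with it. Arrays DR716 and DV707 were highest and DV709 lowest. Tyrobp, also named DAP12, the adapter of Trem2, had values of 12.05, 11.94, 11.94 and 12.17 in control vehicle and 12.41 in DV707, 12.46 in DV710, 12.02 in DV708, 11.32 in DV709 and 11.24 in DV706. Its rosiglitazone values were 12.08, 11.58, 11.65, 12.02 and 11.90 in control and 12.49, 11.81, 11.92, 12.57 and 11.98 in diabetic mice. The adapter followed the arrays of the list as a whole, with DR719 at the top and DV706 and DV709 at the bottom.

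Trem2, a lipid-sensing receptor of phagocytes, had a different order. It was 8.52, 8.63, 8.90 and 8.64 in control vehicle mice and 6.26, 7.10, 8.45, 8.59 and 8.60 in diabetic vehicle mice. Under rosiglitazone it was 8.67, 8.35, 8.40, 8.75 and 8.31 in control and 8.51, 8.75, 8.92, 9.65 and 8.92 in diabetic mice. DV706 and DV707, the arrays with the widest Gapdh 3' minus 5' difference, stood apart at the bottom, and the other 3 diabetic vehicle arrays lay with the controls. A second Trem2 probe set lay below the filter and differed in the opposite direction in every comparison.

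Fcgr1 encodes CD64, the high-affinity receptor for IgG. Its values were 9.73, 9.15, 9.26 and 9.96 in control vehicle and 8.14, 9.65, 9.25, 7.99 and 9.32 in diabetic vehicle mice. With rosiglitazone they were 9.54, 8.75, 8.72, 9.78 and 9.30 in control and 9.73, 9.15, 9.71, 10.12 and 9.56 in diabetic mice. DV709 and DV706 were lowest, and DR719 was highest. A second Fcgr1 probe set, also above the filter, differed less. It was at -0.09 for diabetes under vehicle, 0.17 for rosiglitazone in diabetic mice and 0.0013 for rosiglitazone in control mice. The remaining Fc receptors ran from 10.56 in DV709 to 12.46 in DR719 for Fcgr3 and from 9.77 in DV709 to 12.15 in DR719 for Fcgr2b, the inhibitory Fc receptor.

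Among receptors for the uptake of dying cells, levels differed most for Timd4. Timd4, a receptor for phosphatidylserine on resident macrophages, had the largest SD of the 33, 1.05 over the 19 arrays. It measured 7.28, 7.21, 7.57 and 8.69 in control vehicle, 7.66, 8.67, 6.14, 5.01 and 8.52 in diabetic vehicle, and 6.64, 7.10, 6.76, 6.89 and 8.85 in control rosiglitazone mice. In diabetic rosiglitazone mice it measured 8.89, 6.96, 7.01, 7.97 and 6.10. DV709, the lowest, lay below the filter, and the highest array of each group lay between 8.67 and 8.89. Mertk, a receptor kinase for apoptotic cells, was 9.80, 9.69, 9.88 and 9.60 in control vehicle and 10.82, 10.24, 10.16, 10.70 and 9.74 in diabetic vehicle mice. Its rosiglitazone values were 10.39, 9.93, 9.70, 9.93 and 8.95 in control and 9.76, 9.60, 10.02, 10.02 and 10.11 in diabetic mice. Mertk was high in DV706 and DV709, the arrays in which most members were low.

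Both chemokine receptors of monocytes varied more than most members. Ccr2, the receptor for CCL2 on monocytes from the blood, was 8.40, 8.99, 9.10 and 8.66 in control vehicle and 8.53, 10.58, 8.04, 7.30 and 9.75 in diabetic vehicle mice. With rosiglitazone it was 7.50, 8.04, 7.63, 7.89 and 8.83 in control and 9.40, 8.77, 8.49, 10.70 and 8.75 in diabetic mice. Under rosiglitazone, the lowest 4 arrays of control mice lay below every array of diabetic mice, and CR715 lay among them. Cx3cr1, the receptor for fractalkine, was 9.51, 8.91, 9.33 and 9.19 in control vehicle and 6.35, 5.998, 9.02, 7.99 and 9.10 in diabetic vehicle mice. Its rosiglitazone values were 8.88, 8.84, 9.53, 9.14 and 7.02 in control and 7.49, 8.71, 8.76, 8.26 and 8.59 in diabetic mice. The lowest 5 arrays, at 5.998 to 7.99, were the 5 that were low in sensory neuron transcripts, and the other 14 ran from 8.26 to 9.53.

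Of the lysosomal proteases, which other cells of the nerve also make, Ctsb, cathepsin B, had the smallest SD of the members, 0.07 over the arrays, and values from 13.69 to 13.93. This is its brightest probe set. Of the 3 others above the filter, 1 ran from 10.47 in DV706 and DV707 to 12.75 and differed by -1.05 in diabetic vehicle mice, and the other two differed by 0.47 and 0.12. Ctsd, cathepsin D, was 12.30 in DV706 and 12.28 in DV707, the lowest 2 of 19, and 12.67 to 13.02 in the others. Lgmn, legumain, an asparagine-specific protease, was 10.08, 10.28, 9.88 and 9.92 in control vehicle and 9.43, 10.26, 10.30, 9.81 and 10.87 in diabetic vehicle mice. Rosiglitazone arrays gave 9.62, 9.51, 9.52, 9.75 and 9.68 in control mice and 10.18, 9.94, 9.75, 10.43 and 9.99 in diabetic mice. The 5 control rosiglitazone arrays lay below all 4 control vehicle arrays and did not overlap with the diabetic rosiglitazone arrays, although CR714 and DR718 both round to 9.75.

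Ptprc, which encodes CD45, the phosphatase on leukocytes of any kind, was 9.71, 9.89, 9.83 and 10.06 in control vehicle and 10.58, 11.75, 9.57, 8.62 and 10.16 in diabetic vehicle mice. With rosiglitazone it was 9.49, 9.12, 9.17, 10.02 and 9.97 in control and 10.67, 9.47, 9.58, 10.25 and 9.68 in diabetic mice. DV707 was more than 1 log2 unit above every other array. Spi1, encoding PU.1, stood at 7.61, 8.22, 7.78 and 8.06 in control vehicle and at 8.12, 8.70, 7.72, 7.37 and 8.29 in diabetic vehicle mice. Its rosiglitazone values were 7.62, 7.45, 7.49, 7.91 and 8.18 in control and 8.97, 7.68, 7.67, 8.74 and 7.59 in diabetic mice. DR716, DR719 and DV707 were its highest arrays, and the groups overlapped. For 2 members the mean lay below the filter of 5.54. Itgam, the integrin chain CD11b, had 1 probe set, at 3.56 to 5.60 with DV707 highest, and how well it reads the transcript was not tested. Siglec1, a sialic acid receptor, was at 3.96 to 4.87 in the brightest of its 3 probe sets.

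**Figure D3:**
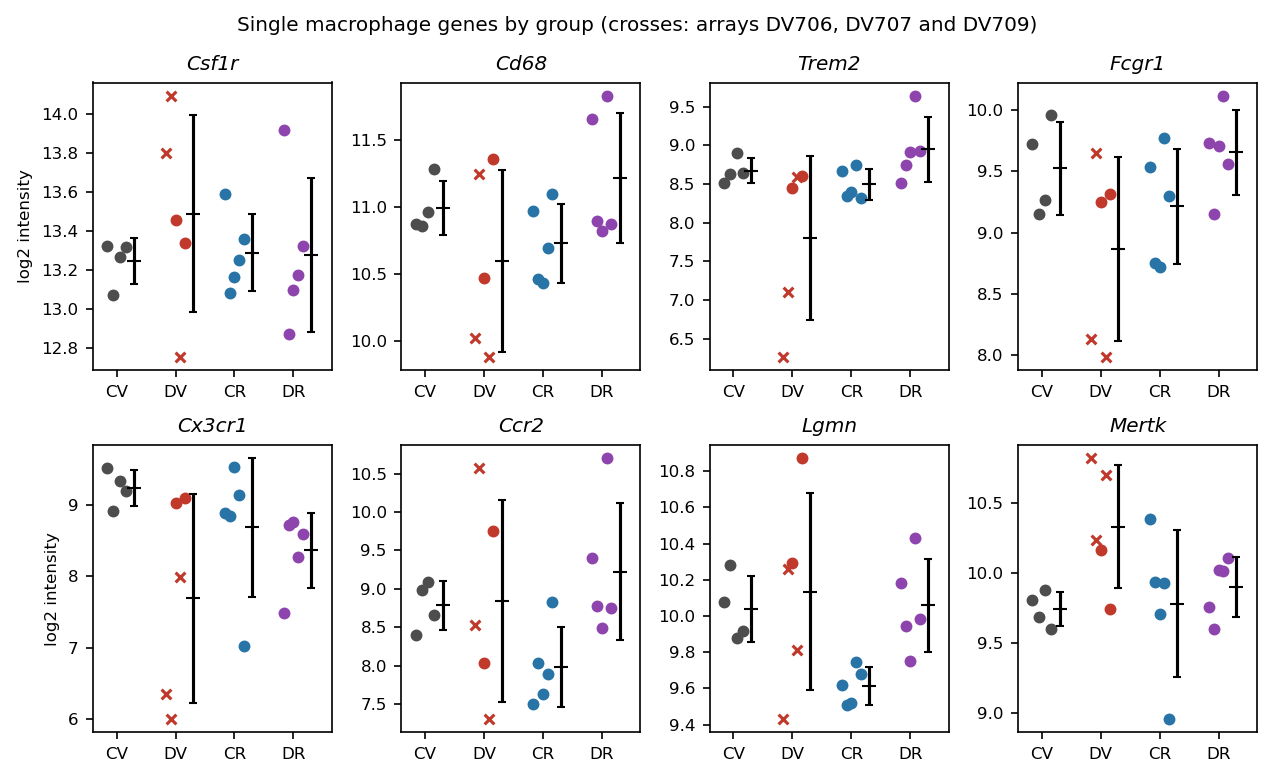
Log2 intensity of 8 macrophage genes in each array by group (CV, DV, CR and DR for control vehicle, diabetic vehicle, control rosiglitazone and diabetic rosiglitazone); crosses are arrays DV706, DV707 and DV709, and bars are the group mean with 1 SD. Trem2 lies at 6.26 and 7.10 in DV706 and DV707 against 8.31 to 9.65 elsewhere, and Lgmn lies at 9.51 to 9.75 in the 5 control rosiglitazone arrays.

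Diabetes was first compared within the vehicle groups. No macrophage gene passed the threshold, an adjusted p of 0.05 in limma over all 13460 genes, and no gene of the array did (0%). Of the 33 members, 10 lay higher and 23 lower (69.7%, against 47.1% of all genes), with a median difference of -0.14 log2 units, against 0.03 over all genes. With each array centred on its median, which is another scaling, 14 lay higher and 19 lower. The 6 Fc receptors and ITAM adapters were all lower, with a median of -0.46, and the 8 macrophage-defining genes had 5 lower and a median of -0.21. Of the 7 tested pattern recognition, lectin and scavenger receptors 5 were lower, with a median of -0.14, and of the 4 leukocyte genes 3, with -0.11. At an unadjusted p under 0.05, 1 member was higher, against 10.7% of all genes, and 4 were lower, against 7.39%. No member was higher without overlap of the groups (2.63% of all genes), and 1 was lower (2.43%), the scavenger receptor Stab1, named after its values were seen, at 10.88 to 11.53 against 11.56 to 11.79.

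The 4 members with the smallest p in this comparison were Cx3cr1, Mertk, Trem2 and Lyz2. Cx3cr1 differed by -1.54 (SE 0.60, 95% interval -2.81 to -0.28, adjusted p = 0.241 in limma). Trem2 differed by -0.87 (SE 0.39, interval -1.68 to -0.06, adjusted p = 0.259) and Lyz2 by -0.30 (SE 0.14, interval -0.59 to -0.01, adjusted p = 0.262). Mertk lay 0.59 higher (SE 0.24, interval 0.08 to 1.10, adjusted p = 0.247). All 4 moved towards 0 without DV706, DV707 and DV709. Cx3cr1 was then at -0.18 (interval -1.30 to 0.95), Trem2 at -0.14 (interval -0.66 to 0.37), Lyz2 at -0.11 and Mertk at 0.21.

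Without those 3 arrays, 17 members lay higher and 16 lower, with a median of 0.01, and again none passed (0% of all genes). An unadjusted p under 0.05 was reached by 2 that lay higher, Coro1a, an actin-binding protein of leukocytes, and Lgmn, against 2.36% of all genes, and by 0 that lay lower, against 2.72%. The median rested on single arrays. It was 0.06 without DV709 (20 higher and 13 lower), -0.03 without DV706, -0.35 without DV707 and -0.29 without both DV706 and DV707. DV706 and DV707 shared a wide Gapdh difference, and DV706, DV707 and DV709 shared low sensory neuron transcripts. The level of macrophage genes was low in DV706 and DV709 and high in DV707. The part of RNA integrity or tissue content in these levels was not tested.

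Rosiglitazone was next compared with vehicle in diabetic mice, a comparison that shares the 5 diabetic vehicle arrays with the last. None of the 33 members and none of the 13460 genes (0%) passed the threshold. Members lay higher in 25 and lower in 8, with a median of 0.24, against -0.02 over all genes, of which 47.2% lay higher. All 6 Fc receptors and adapters were higher, with a median of 0.52, as were all 3 tested receptors and integrins of monocyte entry, with 0.38. The defining genes had 5 of 8 higher and a median of 0.17. With an unadjusted p under 0.05, 4 members were higher, against 4.13% of all genes, and 0 were lower, against 5.56%. The groups overlapped in all 33, while 0.245% of all genes were higher and 0.386% lower without overlap.

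Trem2 differed most, by 1.15 (SE 0.36, 95% interval 0.38 to 1.91, adjusted p = 0.497 in limma), from 7.80 ± 1.07 in diabetic vehicle to 8.95 ± 0.42 in diabetic rosiglitazone mice (SD, n = 5 each). Fcgr1 lay 0.79 higher (SE 0.31, interval 0.12 to 1.45), Cd68 0.62 (SE 0.28, interval 0.02 to 1.22) and Ctsd 0.26 (SE 0.11, interval 0.02 to 0.50), each with an adjusted p of 0.497. The second probe sets of Trem2 and Fcgr1 were at -0.40 and 0.17. Without DV706, DV707 and DV709, Trem2 was 0.42 higher (interval -0.07 to 0.92), Fcgr1 0.37 (interval -0.29 to 1.04), Cd68 0.30 (interval -0.36 to 0.96) and Ctsd 0.04 (interval -0.20 to 0.27). In that fit 22 members lay higher and 11 lower, with a median of 0.06, and none passed (0% of all genes). None was higher at an unadjusted p under 0.05 (0.713% of all genes), and 1 was lower (0.84%), Lgmn, by -0.53. When all 5 arrays with low sensory neuron transcripts were left out, 15 were higher and 18 lower, with a median of -0.02, and without DV709 alone the median was 0.10. Without DV706 and DV707 it was 0.31, with 30 higher.

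In control mice, rosiglitazone went with lower values of most macrophage genes, by amounts within the error of the single genes. None of the 33 and none of all genes (0%) passed. Members lay higher in 4 and lower in 29, with a median of -0.25, against 0.0026 over all genes, of which 49.4% lay lower. The exceptions that lay higher were Itgax, Ctsd, Csf1r and Mertk. Csf1r was at 0.04 in the probe set used, and its other probe sets were at 0.03 and -0.10. All 7 tested pattern recognition, lectin and scavenger receptors were lower (median -0.25), as were all 6 Fc receptors and adapters (median -0.23) and all 4 leukocyte genes (median -0.17). There were 0 members higher (1.48% of all genes) and 0 lower (1.35%) at an unadjusted p under 0.05. None was higher without overlap (1.58% of all genes), and 2 were lower (1.87%), Lgmn and Lyz2.

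Lgmn differed by -0.42 (SE 0.21, 95% interval -0.88 to 0.03, adjusted p = 1 in limma), from 10.04 ± 0.18 (SD, n = 4) to 9.61 ± 0.10 (n = 5). Lyz2 differed by -0.25 (SE 0.14, interval -0.54 to 0.04), with 13.61 to 13.76 in control vehicle and 13.38 to 13.55 in control rosiglitazone arrays. Ccr2 stood at -0.81 (SE 0.56, interval -1.98 to 0.36) and Ctsb at -0.09 (SE 0.07, interval -0.24 to 0.06), all with an adjusted p of 1. DV706, DV707 and DV709 are in neither group, so leaving them out changed the fit's estimate of spread and not the differences. Then 0 members were higher (2.32% of all genes) and 2 lower, Lgmn and Lyz2 (2.21%), at an unadjusted p under 0.05, with none past the threshold (0%). Weighting the arrays by quality in limma gave 12 members lower at that p, against 8.13% of all genes. In that fit 20 genes of the whole array passed the threshold, none of them a member.

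Between diabetic and control mice given rosiglitazone, which share the control rosiglitazone arrays with the last comparison, most macrophage genes lay higher with diabetes. None of the 33 and none of all genes (0%) passed. The split was 29 higher and 4 lower, with a median of 0.28, against 0.01 over all genes, of which 51.7% lay higher. Fc receptors and adapters had a median of 0.40 (6 of 6 higher), leukocyte genes of 0.33 (4 of 4) and defining genes of 0.26 (7 of 8). Those lower were Cx3cr1, Stab1, Ctsd and Csf1r. Csf1r was at -0.01 in the probe set used, and its other probe sets were at 0.08 and 0.12. At an unadjusted p under 0.05, 2 members were higher (0.468% of all genes) and 0 lower (0.817%). Without overlap, 1 was higher, Lgmn (0.178%), and 0 lower (0.223%).

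Ccr2 lay 1.24 higher (SE 0.52, 95% interval 0.14 to 2.35, adjusted p = 1 in limma), from 7.98 ± 0.52 to 9.22 ± 0.89 (SD, n = 5 each). For Lgmn the difference was 0.44 (SE 0.20, interval 0.02 to 0.87), for Cd68 0.49 (SE 0.28, interval -0.11 to 1.08) and for Mpeg1 0.38 (SE 0.22, interval -0.09 to 0.86), each with an adjusted p of 1. The highest values of Ccr2 and Cd68 came from DR719 and DR716. These 2 arrays also had the highest list levels of the group, 0.54 and 0.45. The other diabetic rosiglitazone arrays were at -0.13 to 0.01, within the range of control rosiglitazone arrays, -0.36 to 0.06. No fit left out both DR719 and DR716. Without DR719 the median of the list was 0.22, with 0 members higher at an unadjusted p under 0.05 (0.416% of all genes). Without DR716 it was 0.19, again with 0 higher (0.438%). Fitted without DV706, DV707 and DV709, the same differences gave 5 members higher (1.19% of all genes) and 0 lower (1.48%) at that p, and none passed (0%).

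The interaction, the effect of rosiglitazone in diabetic mice minus that in control mice, was above 0 for most members. None of the 33 and none of all genes (0%) passed. It was positive in 30 and negative in 3, Mertk, Csf1r and Mpeg1, with a median of 0.44, against -0.02 over all genes, of which 48.2% were positive. Csf1r was at -0.25 in the probe set used, and its other probe sets were at -0.27 and 0.56. The median was 0.87 over the 6 Fc receptors and adapters, 1.19 over the 3 receptors and integrins of monocyte entry, 0.47 over the 8 defining genes and 0.29 over the 4 leukocyte genes. At an unadjusted p under 0.05, 4 members were positive (1.88% of all genes) and 0 negative (2.89%). These were Trem2 at 1.32 (SE 0.53, 95% interval 0.20 to 2.44), Lyz2 at 0.45 (SE 0.19, interval 0.06 to 0.85), Fcgr1 at 1.10 (SE 0.46, interval 0.13 to 2.06) and Cd68 at 0.88 (SE 0.41, interval 0.01 to 1.75), each with an adjusted p of 0.748 in limma. The second probe sets of Trem2 and Fcgr1 were at -0.64 and 0.16.

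Without DV706, DV707 and DV709 the interaction was positive in 25 and negative in 8, with a median of 0.31, and none passed (0%). There were 0 members positive (1.23% of all genes) and 0 negative (1.24%) at an unadjusted p under 0.05. Trem2 was then at 0.60 (interval -0.04 to 1.23), Lyz2 at 0.26, Fcgr1 at 0.68 and Cd68 at 0.56. Over the 3 receptors and integrins of monocyte entry the median went from 1.19 to -0.14. Without DV707 alone 11 members were positive at that p (1.56% of all genes), with a list median of 0.57. Without DV709 alone 2 were (3.79%), with a median of 0.27.

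**Figure D4:**
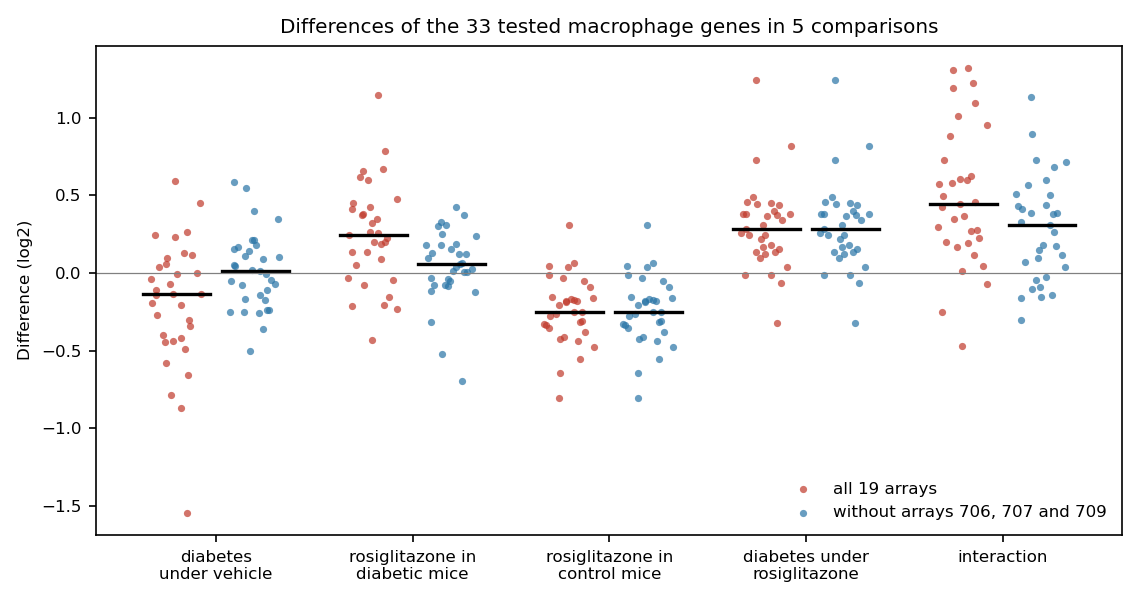
Log2 differences of the 33 tested macrophage genes (1 point per gene) in the 5 comparisons, fitted with all 19 arrays (red) or without DV706, DV707 and DV709 (blue); bars are medians. The medians for diabetes under vehicle move from -0.14 to 0.01 and for rosiglitazone in diabetic mice from 0.24 to 0.06 when those arrays are left out.

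A second list, of 68 macrophage and monocyte genes that are not members, gave 60 with a probe set and 54 tested. It held complement, oxidase, Toll-like receptor and microglial genes, and its mean level was lowest in DV709, at -0.89, and highest in DV707, at 0.59. Diabetic vehicle mice were lower in 32 and higher in 22 (median -0.09), and rosiglitazone in diabetic mice gave 37 higher and 17 lower (median 0.16). In control mice rosiglitazone gave 48 lower and 6 higher (median -0.19), diabetes under rosiglitazone gave 47 higher and 7 lower (median 0.30), and the interaction was positive in 41 (median 0.40). None passed the threshold, and at an unadjusted p under 0.05 the counts were 8 lower (7.39% of all genes), 5 higher (4.13%), 0 higher (1.48%) or lower (1.35%), 1 higher (0.468%) and 6 positive (1.88%) in that order. Whether cells other than macrophages gave part of these counts was not tested. C1qa, a chain of complement C1q and named after its values were seen, differed by -1.14 (SE 0.45) in diabetic vehicle mice and by 1.19 (SE 0.42) with rosiglitazone in diabetic mice. Its adjusted p was 0.242 and 0.497. C1qb, another chain of the same protein, was at 0.08 (SE 0.22) and -0.11 (SE 0.21), and C1qc, the last, at -0.51 (SE 0.31) and 0.53 (SE 0.29).

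Ligands of the members came from a list of 8, of which 7 were tested and none passed. Their differences are also given with all 19 arrays only. At an unadjusted p under 0.05, 2 lay lower in diabetic vehicle mice (7.39% of all genes), 2 higher with rosiglitazone in diabetic mice (4.13%) and 2 lower with it in control mice (1.35%). The monocyte chemokines Ccl2, which binds Ccr2, and Ccl7, both named after their values were seen, were those 2 in each case. In diabetic vehicle mice Ccl2 differed by -1.48 (SE 0.36, 95% interval -2.24 to -0.72, adjusted p = 0.238 in limma) and Ccl7 by -1.46 (SE 0.29). With rosiglitazone in control mice they differed by -1.07 (SE 0.36) and -1.05 (SE 0.29), and with rosiglitazone in diabetic mice they lay 0.85 and 0.90 higher. Their receptor Ccr2 differed by 0.05, -0.81 and 0.38 in the same 3 comparisons. For diabetes under rosiglitazone, Ccl2 was at 0.44 (SE 0.34) and Ccl7 at 0.48 (SE 0.28). In the interaction they were at 1.92 (SE 0.49) and 1.95 (SE 0.40), each with an adjusted p of 0.748 in limma. Both were positive there at an unadjusted p under 0.05 (1.88% of all genes). Csf1, a growth factor that binds Csf1r, was at 0.40 (interval -0.52 to 1.32) and Il34, the other, at -0.90 (interval -1.81 to 0.02) in diabetic vehicle mice. The growth factor Tgfb1 was at 0.57, the fractalkine gene Cx3cl1, whose product binds Cx3cr1, at 0.03, and Gas6, a ligand of Mertk, at -0.36.

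Markers of other cells also differed between these arrays. The level of 5 tested T cell genes, of 8 listed, ran from -0.68 to 0.20 in control vehicle, -1.30 to 0.89 in diabetic vehicle, -1.09 to 1.74 in control rosiglitazone and -0.25 to 0.78 in diabetic rosiglitazone mice. DV709 was its lowest array and CR714, at -0.02 in macrophage genes, its highest, followed by DV707, DR716, DR719 and DV710. The 6 tested neutrophil genes, of 8, ran from -1.87 to 3.96, -2.53 to 3.58, -2.02 to 0.40 and -1.92 to 3.04 in the same order, and the 7 mast cell genes from -1.45 to 0.79, -0.35 to 1.26, -1.22 to 1.09 and -1.50 to 2.02. The 7 tested dendritic cell and class II genes, of 8, ran from -0.16 to 0.14, -0.61 to 0.41, -0.17 to 0.21 and 0.02 to 0.39. Adipocyte genes were at -4.33 in DV709 and 2.72 in CR715, and endothelial genes ran from -0.51 to -0.14 in control vehicle and from -0.33 to 1.17 in diabetic vehicle mice. The 2 tested red blood cell genes were highest in DV710, at 2.94, and DV707, at 2.81, and at -1.89 to -0.79 in the other diabetic vehicle arrays. They were at -0.34 in DR716 and -0.75 in DR719, which were high in macrophage genes. Skeletal muscle genes ran from -2.97 in CR712 to 4.46 in DR720. Mast cells and neutrophils also express Fcer1g, and T cells also express Ptprc and Coro1a. The part of these cells in the differences of macrophage genes was not tested.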

How the data were processed

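Labelled RNA of sciatic nerve from 19 mice was read on Affymetrix arrays. The authors deposited linear intensities, 1 for each probe set in each array, made with RMA per the submitters' processing notes. Software, version and the step to the linear scale are not given in the sources used here. Intensities ran from 3.76 to 30602 over 45101 probe sets, and log2 was taken with no offset.

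Of 45037 probe sets that are not controls, 34945 had 1 symbol in the platform annotation, 932 several and 9160 none. Identifiers of 34741 were found in the reference table, and 0 symbols changed. Genes with a mean above the 40th percentile, a log2 intensity of 5.54, were tested with limma 3.58.1 in R 4.3.3 (1 mean per group, moderated variances, Benjamini-Hochberg over 13460 genes in each of 5 comparisons). The fit was tested on simulated data with independent noise, no shift shared by the genes of an array, and each gene's SD capped at the median. How the fit handles shared shifts or larger spreads was therefore not tested. The p-values set a group difference against the spread between arrays within groups. In that spread, differences between mice, tissue content and RNA integrity cannot be told apart. The number of arrays limits the precision.

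The members, lists and tests were chosen with earlier results of these data known, so lists are described by counts and medians. 10 members were named in every case (Csf1r, Adgre1, Cd68, Cd163, Mrc1, Aif1, Ptprc, Tyrobp, Fcer1g and Spi1), as were the 4 smallest p per comparison, the largest and smallest SD, and members below the filter. Other genes named were chosen after their values were seen. Alternatives left out arrays, or changed the filter, probe set, scaling, array weights, samples in the fit, or added the Gapdh difference as a covariate.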

Additional observations from a re-analysis of the deposited data

Results flagged for a closer look

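Of 96 pairs of a named gene or list level and a group, 6 had 1 array set apart from the rest by more than Dixon's 95% value, where chance gives about 1 in 20. Mrc1 was 11.92 in CV705, against 11.62 to 11.64 in the other control vehicle arrays, and 11.91 in CR715, against 11.25 to 11.42 in the other control rosiglitazone arrays. CR715 also stood apart in Timd4, at 8.85 against 6.64 to 7.10, and in Cx3cr1, at 7.02 against 8.84 to 9.53. Mpeg1 was 10.64 in CV703, against 10.91 to 10.95 in the other control vehicle arrays. Ctsd was 12.99 in DR720, against 12.77 to 12.80 in the other diabetic rosiglitazone arrays.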

How the results depend on the processing

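With 4 or 5 arrays a group, the precision was limited by their number. In the alternatives run, no macrophage gene passed the threshold in any of the 5 comparisons. Leaving out each array in turn moved the median difference of the 33 members between -0.35 and 0.06 for diabetes under vehicle, 0.10 and 0.39 for rosiglitazone in diabetic mice, -0.27 and -0.17 for rosiglitazone in control mice, 0.19 and 0.36 for diabetes under rosiglitazone, and 0.27 and 0.59 for the interaction. The other settings gave -0.33 to 0.01, -0.02 to 0.36, -0.28 to -0.22, 0.18 to 0.29 and 0.29 to 0.60 in that order. The Gapdh difference as a covariate gave the lowest of these for diabetes under vehicle, -0.33, and the highest for rosiglitazone in diabetic mice, 0.36. Averaging all probe sets of a gene took Trem2 from 1.15 to 0.37 for rosiglitazone in diabetic mice. The adjusted p of Trem2 in that comparison ran from 0.138 to 1 over its alternatives. No paired analysis was possible because no replicate number is shared between groups.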
